A study of Homo sapiens with 9 samples.

Results

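The comparison set the one Ewing sarcoma line selected with a kinase inhibitor against the pair of lines selected with antibodies to the same receptor. It used 6 of the 9 arrays of the study, 2 of TC/AEW and 2 each of TC/AVE and TC/CP, all derived from TC-71, an established Ewing sarcoma cell line, chosen as every array the labels assign to those 3 lines. The agent used for TC/AEW was NVP-AEW541, a small-molecule drug that inhibits the kinase of the type 1 insulin-like growth factor receptor (IGF-1R), with 5 µM as its highest concentration. For TC/AVE it was AVE1642, an antibody, given up to 10 µg/ml. For TC/CP it was figitumumab, also an antibody, whose highest concentration is not given in the sources used here. Selection took 6 months for each line, and 3 arrays of parental TC-71 gave the starting level. All lines grew in Iscove medium with 10% serum, and total RNA was measured on a 3′ expression array (Affymetrix HG-U133 Plus 2).

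Each agent is represented by 1 line, and the 2 arrays of a line are technical replicates of it. A difference between TC/AEW and the antibody lines therefore cannot be told apart from a difference between these particular lines, and the agents were given at doses on different scales. The sources used here do not state whether a line was 1 clone or whether drug was present at harvest. Array file names placed TC/AEW, TC/AVE and TC-71 sample 2 in one array set and TC/CP with TC-71 sample 3 in another, with TC-71 sample 1 alone in its own.

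IGF-1R is a cell-surface tyrosine kinase that signals through insulin receptor substrates to the PI3K-AKT-mTOR cascade and through RAS to ERK. Antibodies such as AVE1642 and figitumumab bind outside the cell, block ligand binding and take the receptor off the surface, whereas NVP-AEW541 acts inside the cell on the kinase domain. Ewing sarcoma cells carry the EWS-FLI1 fusion transcription factor and commonly depend on this receptor for growth.

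Levels are log2 RMA values, so a difference of 1 is 2-fold, and levels under 5 are treated as near background, against which a difference is only a lower bound on its size. For each of 14181 genes, the TC/AEW mean was compared with the mean of the TC/AVE and TC/CP means, and with the nearer of those 2 means. TC/AEW lay above both antibody lines for 4251 genes (30% of those tested) and below both for 3946 (27.8%), and it lay between them for the other 5984. Both TC/AEW arrays lay above all 4 antibody arrays for 1774 genes (12.5%) and below all 4 for 1934 (13.6%). The distance from the nearer line reached 1 for 56 genes above (0.395%) and for 18 below (0.127%). In limma, with Benjamini-Hochberg adjustment over all genes, 0 genes (0%) passed an adjusted p of 0.05, and 263 (1.85%) had an unadjusted p under 0.05, 175 of them higher in TC/AEW (1.23%) and 88 lower (0.621%). Against TC/AVE alone 386 genes (2.72%) had such a p and 351 (2.48%) differed by at least 1, and against TC/CP alone 365 (2.57%) and 359 (2.53%). The difference from the antibody mean reached 1 for 189 genes (1.33%), of which 15 (0.106% of those tested) had TC/AEW between the lines. The lowest adjusted p was 0.686, reached by CCND2, HCLS1, WASF3 and NXN. The fit had 2 residual degrees of freedom, from the TC-71 samples alone, and an exact permutation of 1 line against 2 cannot give a two-sided p under 0.333. The gene values below are therefore descriptions of these lines, with ± giving the standard error of the limma fit.

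**Figure D1:**
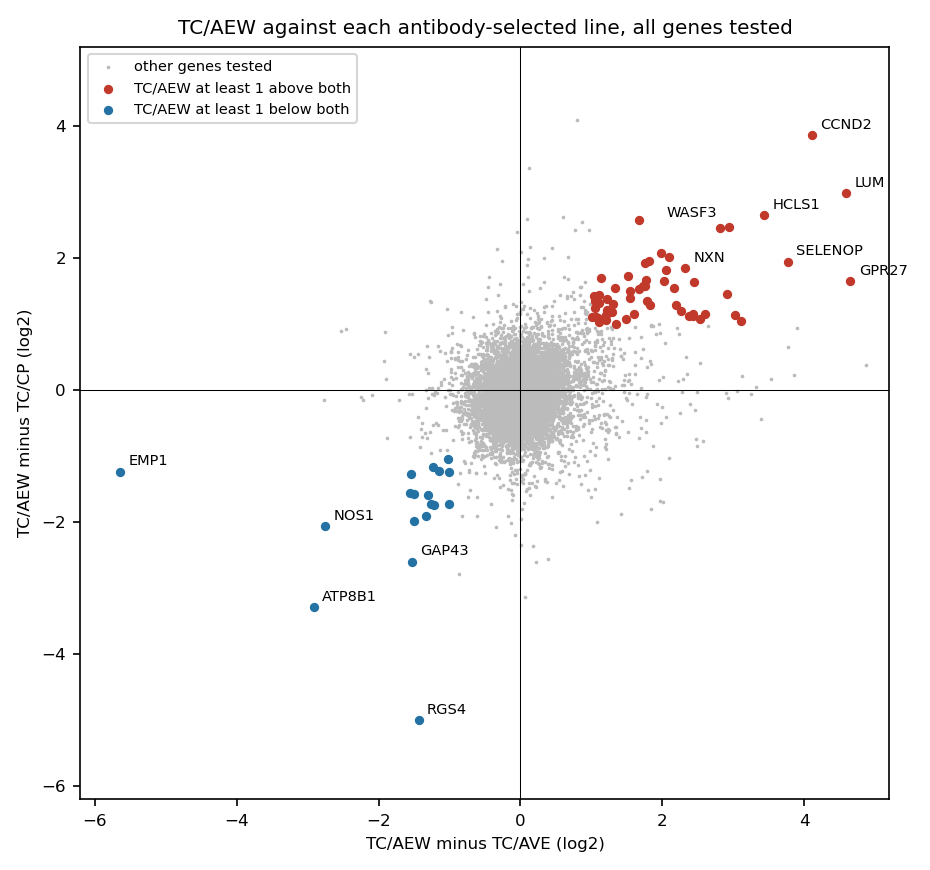
Each point is 1 of 14181 genes, with TC/AEW minus TC/AVE (log2) across and TC/AEW minus TC/CP (log2) up. The 56 red genes stood at least 1 above both antibody lines and the 18 blue genes at least 1 below both, with CCND2 at the upper right and ATP8B1, NOS1, RGS4 and EMP1 at the lower left.

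Markers of Ewing sarcoma were high in every line. Of the 10 genes listed as defining Ewing sarcoma, 9 had a probe set, all 9 lay at 5 or above in each line, and their mean level was 10.17 on both TC/AEW arrays, against 10.11 and 10.18 in TC/AVE and 10.14 and 10.12 in TC/CP. Blood and immune markers averaged 4.71 to 4.80 in TC/AEW, 4.73 to 4.79 in TC/AVE and 4.68 to 4.72 in TC/CP, with 4 of 16 at 5 or above in each line. Fibroblast and endothelial markers averaged 6.19 to 6.22 in TC/AEW, against 5.68 to 5.70 in TC/AVE and 5.85 to 5.87 in TC/CP. Without LUM and COL3A1, which are described below, the 9 tested members averaged 6.46 and 6.47 in TC/AEW, 6.52 and 6.54 in TC/AVE and 6.40 and 6.39 in TC/CP.

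CCND2, the D-type cyclin that partners CDK4 and CDK6 in early cell cycle entry, stood farthest above both antibody lines. Its level was 8.80 and 8.84 in TC/AEW, against 4.70 and 4.74 in TC/AVE, 4.89 and 5.01 in TC/CP and 4.97, 5.96 and 5.45 in TC-71. The TC/AEW arrays lay far above all other arrays, and the difference from the antibody mean was 3.99 ± 0.44 (limma adjusted p = 0.686). Its other 2 probe sets that passed the level filter stood 1.76 and 0.38 above the nearer antibody line. CCND1, the D-type cyclin that Ewing cells express at a high level, lay the other way at 11.42 and 11.38 in TC/AEW, 11.88 and 11.90 in TC/AVE, 12.20 and 12.35 in TC/CP and 10.99 to 11.88 in TC-71. That difference was -0.68 ± 0.43, with the TC/AEW arrays below all 4 antibody arrays but inside the TC-71 range. The other CCND1 probe set averaged 11.27 in TC/AEW, 11.51 in TC/AVE and 11.25 in TC/CP, and so placed TC/AEW between the antibody lines. CDKN1C, which encodes the CDK inhibitor p57, differed by 0.80 ± 0.22, and CDK4 by -0.20 ± 0.22. Over the 15 tested D cyclins, partners and inhibitors, 4 (26.7%) lay above both antibody lines and 3 (20%) below, against 30% and 27.8% of all genes. Their median difference was -0.03 against 0.00 over all genes.

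Actin regulators held the next pair. HCLS1, the cortactin homolog usually found in blood cells, binds actin and the Arp2/3 complex. It had levels of 7.63 and 7.68 in TC/AEW, 4.15 and 4.28 in TC/AVE, 5.00 and 5.00 in TC/CP and 4.65 to 5.11 in TC-71. WASF3, a WAVE protein that relays RAC signals to Arp2/3, had 6.77 and 6.96 in TC/AEW, 3.98 and 4.12 in TC/AVE, 4.57 and 4.23 in TC/CP and 4.12 to 4.57 in TC-71. Both genes lay near background in every other line and clear of it in TC/AEW, with differences of 3.04 ± 0.28 and 2.64 ± 0.29 and an adjusted p of 0.686 each in limma. WASF3 passed the level filter through the TC/AEW arrays only. CTTN, the cortactin most non-blood cells use, differed by -0.76 ± 0.32 and the WAVE complex subunit NCKAP1 by -0.34 ± 0.24, while the subunit CYFIP2 differed by 0.48 ± 0.35. The other probe sets of CTTN and NCKAP1 that passed the filter did not place TC/AEW below both antibody lines. Of 25 tested WAVE complex members and actin regulators, 9 (36%) lay above both antibody lines and 6 (24%) below, against 30% and 27.8% of all genes. Their median difference was 0.00.

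The RefSeq window of HCLS1 (GRCh38.p14, chr3:121660854-121661153, minus strand) is shown because HCLS1 was high in one line only and its window carries an AP-1 motif. Windows run from 250 bases before to 50 after a start listed for the gene. Capitals mark TGACTCA, 91 to 85 bases before the start. On either strand (TGACTCA or TGAGTCA) the motif occurred in 4.95% of 35116 windows, and in 3 of 70 windows (4.29%) of the genes standing at least 1 above both antibody lines. A match describes the letters and says nothing of binding.
HCLS1: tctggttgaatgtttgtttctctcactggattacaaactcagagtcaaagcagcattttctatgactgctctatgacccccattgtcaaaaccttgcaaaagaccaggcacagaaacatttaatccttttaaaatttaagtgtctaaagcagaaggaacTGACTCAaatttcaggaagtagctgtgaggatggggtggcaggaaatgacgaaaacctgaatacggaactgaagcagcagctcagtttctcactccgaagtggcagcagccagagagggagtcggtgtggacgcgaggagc

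**Figure D2:**
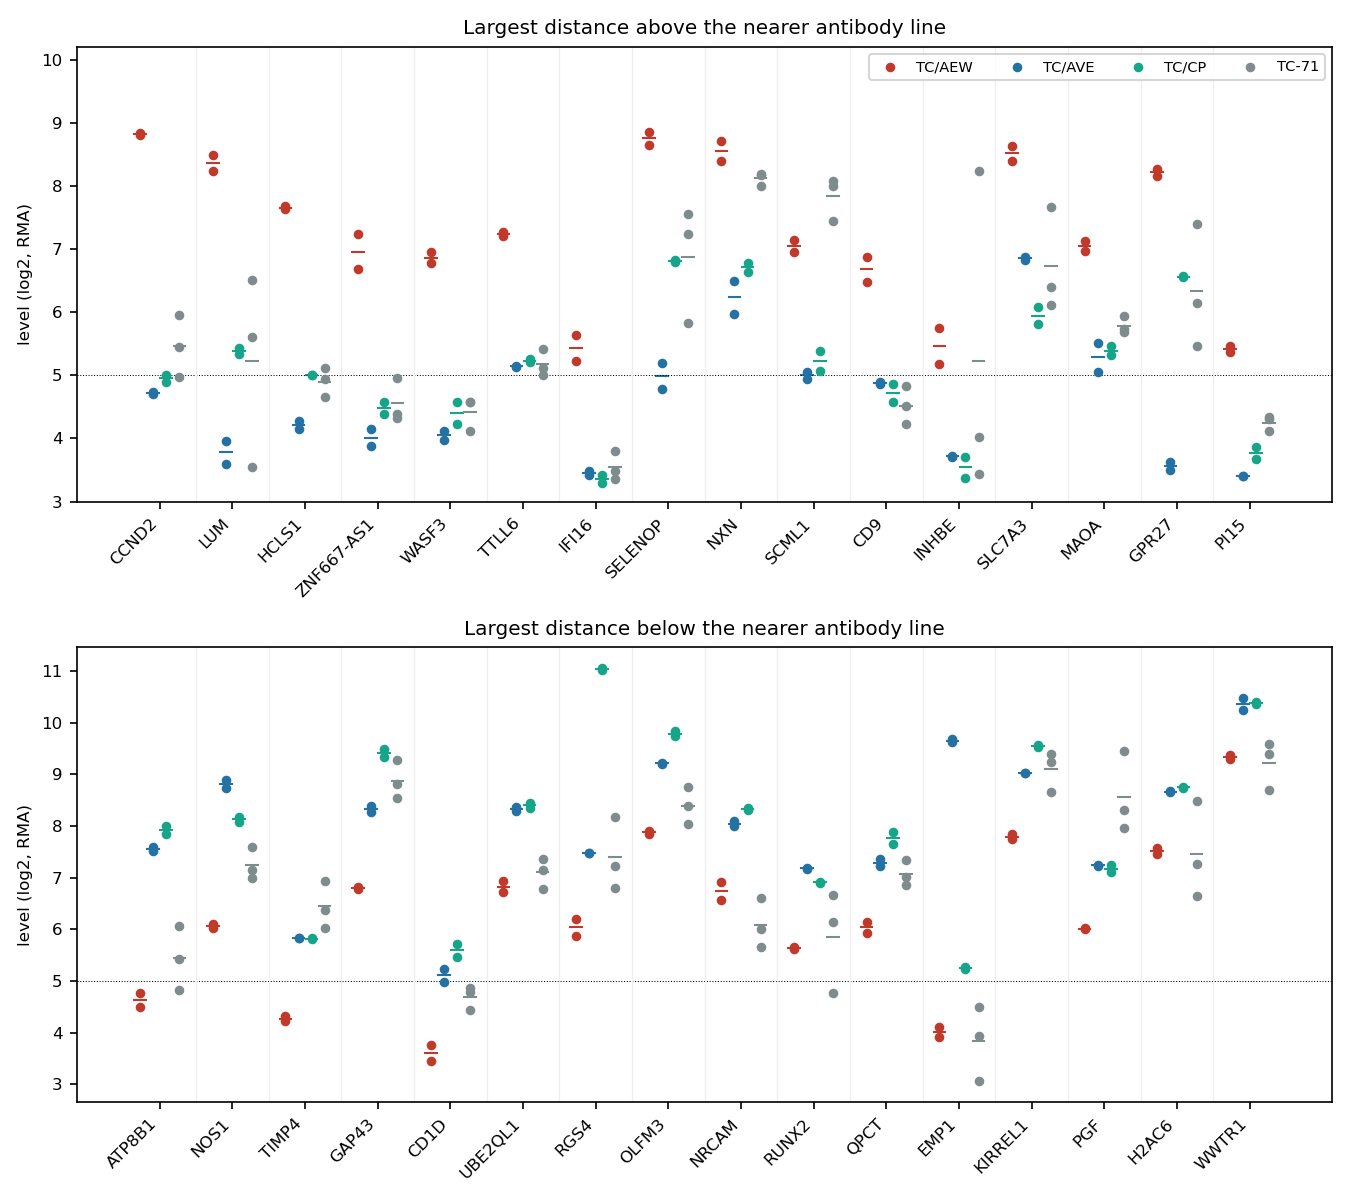
Levels (log2, RMA) of the 16 genes farthest above and the 16 farthest below the nearer antibody line, with 1 point per array and a bar for each line's mean, in the order TC/AEW, TC/AVE, TC/CP and TC-71. In the upper panel the TC/AEW points lie above all antibody points for each gene, while the 3 TC-71 points lie nearer the antibody lines for CCND2, HCLS1 and WASF3 and above TC/AEW for SCML1. The dotted line marks a level of 5.

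Matrix genes were among the largest differences in both directions. LUM, the collagen-binding proteoglycan lumican, had levels of 8.49 and 8.24 in TC/AEW, 3.59 and 3.96 in TC/AVE, 5.33 and 5.44 in TC/CP and 3.55, 6.51 and 5.61 in TC-71, a difference of 3.78 ± 1.19. COL3A1, the type III collagen chain, had 8.15 and 8.47 in TC/AEW, 5.12 and 5.26 in TC/AVE, 7.28 and 7.24 in TC/CP and 6.67 to 7.97 in TC-71. For COL3A1 the distance was 3.11 from TC/AVE and 1.05 from TC/CP, so the antibody lines themselves lay far apart. TIMP3, a matrix-bound metalloproteinase inhibitor, differed by 1.11 ± 0.33, whereas its relative TIMP4 had 4.32 and 4.22 in TC/AEW, against 5.82 and 5.82 in TC/AVE, 5.81 and 5.84 in TC/CP and 6.03 to 6.94 in TC-71. The adhesion-modulating glycoprotein TNC stood at 5.21 and 5.52 in TC/AEW, 6.12 and 6.35 in TC/AVE, 8.20 and 8.11 in TC/CP and 5.03 to 6.11 in TC-71. TNC was thus at parental levels in TC/AEW and differed mainly from TC/CP. SPARC, a collagen-binding matricellular protein, differed by -0.85 ± 0.22. The 26 tested collagens and matrix genes had 9 members (34.6%) above both antibody lines and 5 (19.2%) below, with a median difference of 0.06 against 0.00 over all genes. Of the 11 tested fibroblast and endothelial markers, which include LUM and COL3A1, 54.5% lay above both antibody lines and 18.2% below, against 30% and 27.8% of all genes. Apart from LUM and COL3A1, the members above both lines stood at most 0.17 above the nearer line. Only LUM and COL3A1 had both TC/AEW arrays above all 4 antibody arrays, while THY1 and CLDN5 had both below. PDGFRA averaged 5.31 in TC/AEW, 5.14 in TC/AVE and 5.14 in TC/CP, whereas THY1 averaged 7.15 in TC/AEW, 7.50 in TC/AVE and 7.26 in TC/CP. For COL1A1, DCN and PDGFRB, TC/AEW lay between the antibody lines. The part of such cells in these levels was not tested.

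The selenium carrier gene SELENOP, MAOA and NXN were among the 16 genes farthest above both lines. SELENOP, whose product is secreted, had 8.86 and 8.65 in TC/AEW, 4.78 and 5.19 in TC/AVE, 6.82 and 6.79 in TC/CP and 5.82 to 7.56 in TC-71. MAOA, the mitochondrial monoamine oxidase, had 6.98 and 7.13 in TC/AEW, 5.52 and 5.05 in TC/AVE, 5.32 and 5.46 in TC/CP and 5.69 to 5.93 in TC-71. For these genes TC/AEW lay above the antibody lines and the parent alike. NXN, the thioredoxin-family protein nucleoredoxin, showed a different arrangement, with 8.40 and 8.72 in TC/AEW, 6.50 and 5.97 in TC/AVE, 6.78 and 6.64 in TC/CP and 7.999, 8.18 and 8.19 in TC-71. Here TC/AEW stood near the parent and the antibody lines stood lower, by 2.09 ± 0.23 or 4.24-fold (limma adjusted p = 0.686). SCML1, a Polycomb-related protein, had 6.95 and 7.15 in TC/AEW and 7.45 to 8.08 in TC-71. Its level was 5.06 and 4.94 in TC/AVE and 5.39 and 5.07 in TC/CP. The antibody lines again stood below the parent, but for SCML1 both TC/AEW arrays also lay below all TC-71 samples. SLC7A3, a cationic amino acid transporter, had 8.40 and 8.64 in TC/AEW, 6.88 and 6.82 in TC/AVE, 6.08 and 5.81 in TC/CP and 6.12, 7.66 and 6.40 in TC-71.

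Among the remaining genes far above both lines, ZNF667-AS1, a long non-coding RNA, differed by 2.71 ± 0.34 and TTLL6, a tubulin polyglutamylase, by 2.05 ± 0.27. The tetraspanin CD9 had 6.49 and 6.88 in TC/AEW, against 4.89 and 4.86 in TC/AVE, 4.58 and 4.86 in TC/CP and 4.23 to 4.82 in TC-71, so it was above background in TC/AEW alone. PI15, a secreted protein of the CRISP family, differed by 1.83 ± 0.23 and likewise lay under 5 in the other lines. CD9 and PI15 therefore passed the level filter through the TC/AEW arrays only. GPR27, an orphan G protein-coupled receptor, had 8.16 and 8.27 in TC/AEW, 3.50 and 3.62 in TC/AVE, 6.57 and 6.55 in TC/CP and 5.47 to 7.40 in TC-71. Its other probe set averaged 6.29 in TC/AEW, 6.06 in TC/AVE and 5.99 in TC/CP, only 0.23 above the nearer line. GAL, which encodes the neuropeptide galanin, stood at 7.98 and 8.26 in TC/AEW, 5.54 and 5.81 in TC/AVE, 6.56 and 6.40 in TC/CP and 6.16 to 6.82 in TC-71. HRK, a BH3-only protein that promotes apoptosis, stood at 6.81 and 7.07 in TC/AEW, 5.58 and 5.69 in TC/AVE, 5.72 and 5.55 in TC/CP and 5.71 to 6.63 in TC-71. GAL and HRK did not overlap between TC/AEW and any other line.

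ATP8B1, a phospholipid flippase of the plasma membrane, stood farthest below both antibody lines. Its level was 4.50 and 4.78 in TC/AEW, against 7.52 and 7.59 in TC/AVE, 8.01 and 7.85 in TC/CP and 4.83, 6.06 and 5.43 in TC-71. Both antibody lines therefore lay above the parent, and the difference was -3.10 ± 0.52. Its other probe set, of a type whose probes may match several transcripts, averaged 7.96 in TC/AEW, 8.21 in TC/AVE and 8.81 in TC/CP, a distance of -0.24 from the nearer line. NOS1, the neuronal nitric oxide synthase, had 6.03 and 6.10 in TC/AEW, 8.74 and 8.89 in TC/AVE, 8.18 and 8.07 in TC/CP and 6.998 to 7.60 in TC-71. For NOS1 the parent lay between TC/AEW and the antibody lines, and its other 4 probe sets that passed the filter gave distances of -2.02, -0.997, -0.22 and 0.

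Several nerve-type adhesion and signalling genes lay on this side. GAP43, a growth cone protein, had 6.79 and 6.83 in TC/AEW, 8.28 and 8.39 in TC/AVE, 9.48 and 9.34 in TC/CP and 8.54 to 9.28 in TC-71, so TC/AEW was below all other arrays. NRCAM, a neuronal adhesion molecule, had 6.57 and 6.92 in TC/AEW, 7.99 and 8.09 in TC/AVE, 8.36 and 8.32 in TC/CP and 5.66 to 6.60 in TC-71, so the antibody lines were above the parent. The secreted olfactomedin OLFM3 followed with 7.84 and 7.91 in TC/AEW, 9.22 and 9.21 in TC/AVE, 9.84 and 9.73 in TC/CP and 8.04 to 8.76 in TC-71. RGS4, which ends signalling by Gq- and Gi-coupled receptors, had 5.87 and 6.21 in TC/AEW, 7.47 and 7.47 in TC/AVE, 11.06 and 11.02 in TC/CP and 6.80 to 8.18 in TC-71. Most of the RGS4 difference of -3.22 ± 0.58 thus came from TC/CP. Over the whole list of 24 tested neural cytoskeleton and growth cone genes the median lay the other way, at 0.17. Of that list 8 (33.3%) lay above both antibody lines and 5 (20.8%) below, against 30% and 27.8% of all genes. SCG2, a granin, differed by -1.12 ± 0.67, opposite in sign to GAL.

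The transcriptional regulators WWTR1 and RUNX2 also lay below both lines. WWTR1, the Hippo-pathway coactivator TAZ, had 9.30 and 9.37 in TC/AEW, 10.25 and 10.47 in TC/AVE, 10.40 and 10.37 in TC/CP and 8.69 to 9.58 in TC-71. RUNX2, the osteoblast transcription factor, had 5.62 and 5.66 in TC/AEW, 7.17 and 7.19 in TC/AVE, 6.92 and 6.91 in TC/CP and 4.77 to 6.66 in TC-71. For both, TC/AEW lay within the parental range and the antibody arrays above it, although the other 3 kept probe sets of RUNX2 did not place TC/AEW on the same side. The receptor TGFBR2 differed by -0.84 ± 0.49 and the inhibitory SMAD7 by -0.67 ± 0.24. Of the 30 tested TGF-beta and BMP genes, 6 (20%) lay above both antibody lines and 11 (36.7%) below, against 30% and 27.8% of all genes. Both TC/AEW arrays lay above all 4 antibody arrays for 4 and below for 9, against 12.5% and 13.6% of all genes. The median difference was -0.05, with -0.16 from TC/AVE and 0.06 from TC/CP. It was 0.0080 with each line set against the TC-71 sample of its own array set. The integrin chains ITGB5 and ITGA1 differed by -0.94 ± 0.42 and -0.78 ± 0.26. PGF, a VEGF-family ligand, differed by -1.20 ± 0.64, with 6.001 and 6.02 in TC/AEW, 7.22 and 7.25 in TC/AVE, 7.25 and 7.10 in TC/CP and 7.95 to 9.45 in TC-71, so all 3 resistant lines lay below the parent. Its other probe set has a higher level, with means of 9.19 in TC/AEW, 9.07 in TC/AVE and 9.51 in TC/CP, and placed TC/AEW between the antibody lines.

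Downstream of the receptor, genes that ERK signalling induces were mostly lower. Of 24 tested, 6 had a positive difference from the antibody mean and 18 a negative one, 9 (37.5%) were below both lines and 4 (16.7%) above both, against 27.8% and 30% of all genes, and the median difference was -0.21 against 0.00 over all genes. The median was -0.02 against TC/AVE and -0.58 against TC/CP, so the shift was one relative to TC/CP. EMP1, a membrane protein of the PMP22 family, had 3.91 and 4.11 in TC/AEW, 9.68 and 9.62 in TC/AVE, 5.22 and 5.27 in TC/CP and 3.06 to 4.49 in TC-71, and was thus well above background in TC/AVE alone. Its other 2 probe sets that passed the filter gave distances of -0.40 and -0.08 from the nearer line. DUSP5, a nuclear phosphatase that switches off ERK, had 6.54 and 6.77 in TC/AEW, 7.65 and 7.68 in TC/AVE, 7.89 and 7.92 in TC/CP and 6.86 to 7.53 in TC-71. DUSP5 was below all other arrays in TC/AEW, with a difference of -1.13 ± 0.35. SPRED1, an inhibitor of RAS-ERK signalling, differed by -0.80 ± 0.61, and EPHA4, an ephrin receptor, by 0.73 ± 0.55. Other EPHA4 probe sets that passed the filter gave distances of 0.17, 0.0077 and 0 from the nearer line.

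Windows of EMP1 (chr12:13196476-13196775, plus strand) and NOS1 (chr12:117309361-117309660, minus strand), from RefSeq GRCh38.p14, are shown because both genes were low in TC/AEW and both windows hold the AP-1 motif, 175 to 169 and 111 to 105 bases before the start. Of the windows of genes at least 1 below both lines, 4 of 24 (16.7%) held it, in EMP1, NOS1, NRCAM and RUNX2, against 4.95% of all windows. Capitals mark the motif. The start used for NOS1 lies well inside the gene by its listed position, so that window is not at the gene's outermost start.
EMP1: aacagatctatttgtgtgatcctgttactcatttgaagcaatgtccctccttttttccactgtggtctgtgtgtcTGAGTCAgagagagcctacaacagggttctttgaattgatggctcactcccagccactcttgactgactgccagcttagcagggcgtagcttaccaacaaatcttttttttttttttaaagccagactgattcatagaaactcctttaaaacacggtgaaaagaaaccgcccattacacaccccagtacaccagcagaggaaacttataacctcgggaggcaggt
NOS1: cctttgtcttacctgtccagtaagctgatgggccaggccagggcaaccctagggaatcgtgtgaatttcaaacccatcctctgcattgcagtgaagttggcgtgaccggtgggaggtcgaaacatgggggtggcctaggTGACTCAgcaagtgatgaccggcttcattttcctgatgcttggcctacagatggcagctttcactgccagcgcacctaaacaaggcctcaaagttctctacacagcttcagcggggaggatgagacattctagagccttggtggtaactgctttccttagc

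In the receptor's own pathway, TC/AEW lay between the antibody lines for the probe set used for the targeted gene. IGF1R had 9.09 and 9.27 in TC/AEW, 9.53 and 9.63 in TC/AVE, 9.07 and 8.90 in TC/CP and 9.25 to 9.40 in TC-71. The IGF1R difference was -0.11 ± 0.22, within its standard error. That probe set has the highest level of the gene, and 2 others above 8 placed TC/AEW below both lines, by distances of -0.20 and -0.10, while the other 2 did not. The insulin receptor gene INSR had 6.54 and 6.78 in TC/AEW, 7.30 and 7.08 in TC/AVE, 5.997 and 6.01 in TC/CP and 5.76 to 6.47 in TC-71, and it too lay between. The ligand IGF1 had 6.98 and 6.95 in TC/AEW, 6.55 and 6.48 in TC/AVE, 5.97 and 5.72 in TC/CP and 6.32 to 6.70 in TC-71, a difference of 0.78 ± 0.26 with no overlap with any other line. The adaptor IRS2 differed by 0.45 ± 0.22 and IRS1 by 0.33 ± 0.53. Over 17 tested genes of the IGF axis, 5 (29.4%) lay above both antibody lines and 2 (11.8%) below, against 30% and 27.8% of all genes. Their median difference was 0.01.

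DEPTOR, an inhibitory subunit of the mTOR complexes, lay farthest from both antibody lines among 24 tested PI3K and mTOR components. Its level was 8.20 and 8.42 in TC/AEW, against 6.81 and 6.72 in TC/AVE, 6.84 and 6.76 in TC/CP and 5.38, 6.59 and 6.51 in TC-71. The antibody lines were alike and near the upper parental samples. TC/AEW lay above every other array, and its difference from the antibody mean was 1.53 ± 0.57. The kinases PDPK1 and AKT2 differed by -0.50 ± 0.27 and -0.42 ± 0.33. In that list 4 members (16.7%) lay above both antibody lines and 10 (41.7%) below, against 30% and 27.8% of all genes, with a median of -0.12.

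Members of a list of FOXO factors and genes that insulin signalling represses were mostly higher. Of 19 tested, 17 had a positive difference. Above both antibody lines lay 13 (68.4%) and below both 1 (5.26%), against 30% and 27.8% of all genes. For 11 of them, against 12.5% of all genes, both TC/AEW arrays lay above all 4 antibody arrays. The list includes FOXO1, FOXO3, FOXO4 and FOXO6 themselves, and the member below both lines was FOXO1, at -0.44 ± 0.33. The median difference was 0.48 against 0.00 over all genes, and 0.34 from TC/AVE and 0.40 from TC/CP taken alone. TXNIP, which binds thioredoxin and limits glucose uptake, had 10.08 and 10.16 in TC/AEW, 9.16 and 9.14 in TC/AVE, 7.73 and 7.65 in TC/CP and 8.29, 10.59 and 7.96 in TC-71. TC-71 sample 2, of the same array set as TC/AEW, was the highest of all arrays for TXNIP. TRIB1, a pseudokinase, differed by 0.87 ± 0.30 and SESN3, a sestrin that restrains mTOR complex 1, by 0.75 ± 0.41. Set against the TC-71 sample of the same array set, 16 of the 19 genes were positive, against 7500 of all 14181 genes. Their median was then 0.29, and TXNIP differed by 0.38.

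The TXNIP window (RefSeq GRCh38.p14, chr1:145996530-145996829, minus strand, 1 of 2 windows of the gene) is printed because it carries the carbohydrate-response pattern, 2 copies of CACGNG with 5 bases between them, in capitals at 88 to 72 bases before the start. That pattern, searched on both strands, was in 20 of 35116 windows (0.057%).
TXNIP: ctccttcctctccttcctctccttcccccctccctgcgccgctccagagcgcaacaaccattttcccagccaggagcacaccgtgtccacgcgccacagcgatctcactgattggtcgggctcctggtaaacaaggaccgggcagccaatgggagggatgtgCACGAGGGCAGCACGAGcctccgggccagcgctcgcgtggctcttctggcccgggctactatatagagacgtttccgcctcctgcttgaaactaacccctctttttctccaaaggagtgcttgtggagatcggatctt

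For the amino acid and unfolded protein response list, the direction against TC/CP depended on whether the parental samples entered. Of 27 tested genes, 24 had a positive difference, 16 (59.3%) lay above both antibody lines and 2 (7.41%) below, against 30% and 27.8% of all genes, and the median was 0.23. ATF3, a stress-induced transcription factor, had 9.01 and 9.24 in TC/AEW, 8.08 and 8.08 in TC/AVE, 7.67 and 7.72 in TC/CP and 6.21, 9.71 and 6.98 in TC-71. CHAC1, which degrades glutathione, had 9.92 and 10.15 in TC/AEW, 9.22 and 9.32 in TC/AVE, 7.65 and 7.57 in TC/CP and 7.83, 10.30 and 6.80 in TC-71. The TC/AEW arrays were above all antibody arrays for both genes, and TC-71 sample 2 was higher still. SESN2 and DDIT4, which restrain mTOR complex 1, and CTH, which makes cysteine, differed by 1.27 ± 1.31, 1.20 ± 1.39 and 1.04 ± 1.32. INHBE, an inhibin chain, had 5.75 and 5.18 in TC/AEW, 3.73 and 3.70 in TC/AVE, 3.38 and 3.70 in TC/CP and 4.02, 8.23 and 3.44 in TC-71. TC-71 sample 2 was the highest TC-71 sample for 24 of the 27 listed genes, and it was above the TC/AEW mean for 24. Over all 14181 genes these counts were 4653 and 6671. With each line set against the TC-71 sample of its own array set, 22 of 27 differences were negative, against 6681 of all 14181. The median was -0.22, against 0.02 over all genes. TC/AEW and TC/AVE share an array set, so their comparison does not turn on the parental sample: 16 of the 27 genes were higher in TC/AEW than in TC/AVE, by a median of 0.06, with 1.04 for ATF3, 0.76 for CHAC1, 0.91 for SESN2, 0.85 for DDIT4, 0.90 for CTH and 1.75 for INHBE. Against TC/CP, which lies in another set, 25 of 27 were higher in TC/AEW as measured, by a median of 0.44, and 4 of 27 once each line was set against its own TC-71 sample, with a median of -0.54. Over all 14181 genes, 7289 were higher in TC/AEW than in TC/AVE. Against TC/CP the all-gene counts were 7190 as measured and 7525 with own TC-71 samples. For the contrast with both antibody lines the own-set differences were -0.13 for ATF3, -0.15 for CHAC1, -0.024 for SESN2, -0.25 for DDIT4, -0.30 for CTH and -0.56 for INHBE, so the direction against TC/CP, and with it that of the combined contrast, was not settled.

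**Figure D3:**
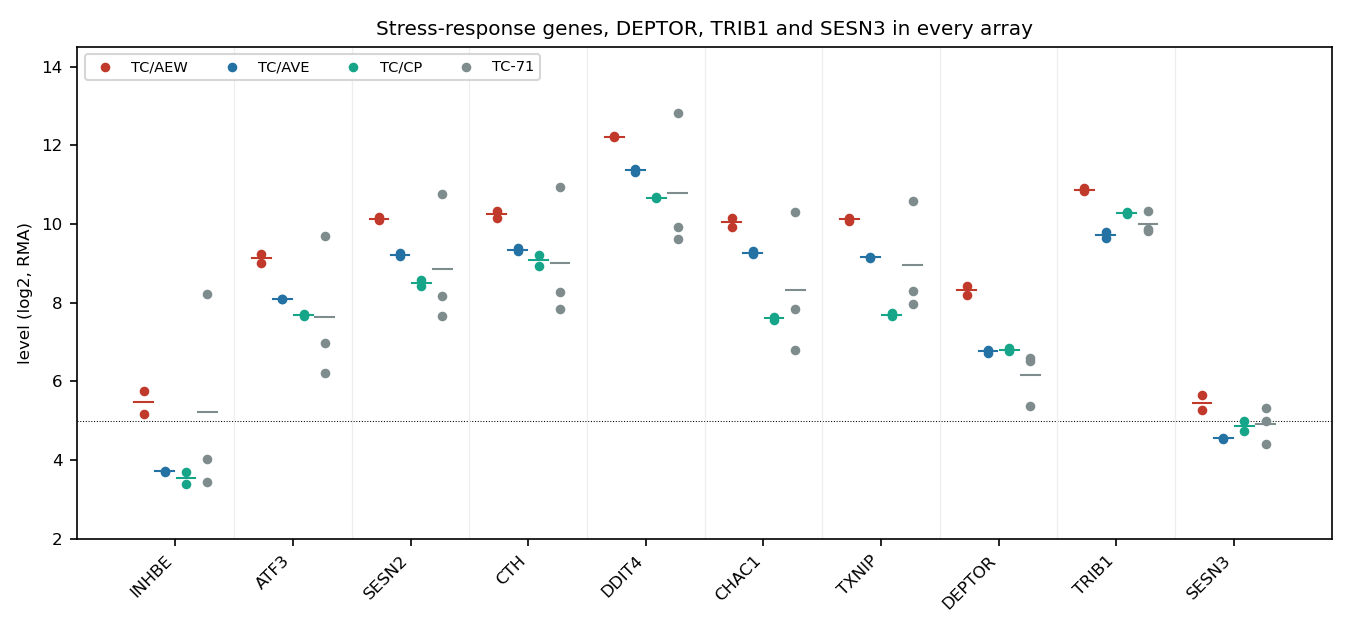
Levels (log2, RMA) of 10 genes, with 1 point per array and a bar for each line's mean, in the order TC/AEW, TC/AVE, TC/CP and TC-71. For INHBE, ATF3, SESN2, CTH, DDIT4, CHAC1 and TXNIP a single TC-71 sample lies above TC/AEW, while for DEPTOR, TRIB1 and SESN3 the TC/AEW mean lies above all other lines' means.

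Windows of CHAC1 (chr15:40953221-40953520, plus strand) and ATF3 (chr1:212565157-212565456, plus strand, 1 of 2 windows of the gene), from RefSeq GRCh38.p14, show the amino acid response letters TGATGNAA in capitals, read as TTNCATCA on the other strand, 209 to 202 and 191 to 184 bases before the start. They are shown because 7 of 34 windows (20.6%) of this list held the motif, against 3.62% of all windows.
CHAC1: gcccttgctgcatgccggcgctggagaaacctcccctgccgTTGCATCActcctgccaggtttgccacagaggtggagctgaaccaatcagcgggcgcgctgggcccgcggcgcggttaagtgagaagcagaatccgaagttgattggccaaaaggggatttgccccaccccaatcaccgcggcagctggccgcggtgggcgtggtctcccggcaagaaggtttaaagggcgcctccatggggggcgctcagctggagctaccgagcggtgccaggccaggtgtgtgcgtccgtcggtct
ATF3: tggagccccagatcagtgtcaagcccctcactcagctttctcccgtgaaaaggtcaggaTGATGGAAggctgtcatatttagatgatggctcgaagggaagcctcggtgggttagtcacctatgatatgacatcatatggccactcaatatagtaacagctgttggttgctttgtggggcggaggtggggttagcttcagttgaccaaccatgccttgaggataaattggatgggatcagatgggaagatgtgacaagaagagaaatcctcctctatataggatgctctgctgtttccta

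Interferon-response genes were higher on balance, by about the spread of the parental samples. Of 27 tested, 23 had a positive difference, 16 (59.3%) lay above both antibody lines and 2 (7.41%) below, against 30% and 27.8% of all genes, and the median was 0.28. It was 0.21 with each line set against the TC-71 sample of its own array set. The list's median level had a standard deviation of 0.28 over the 3 TC-71 samples. From TC/AVE alone the median difference was 0.30, with 24 of 27 genes higher in TC/AEW. From TC/CP alone it was 0.12, with 17 higher. IFI16, a sensor of DNA in the nucleus and cytosol, had 5.63 and 5.22 in TC/AEW, 3.49 and 3.42 in TC/AVE, 3.30 and 3.42 in TC/CP and 3.35 to 3.80 in TC-71. It was above background in TC/AEW alone and passed the level filter through those arrays only, so the filter partly set this direction. Its other 2 probe sets, both past the filter, stood 2.44 and 2.43 above the nearer antibody line. Both antibody lines were under 5 for these as well, so they carry the same limit. IFI6 and the RNA sensor IFIH1 differed by 0.78 ± 0.38 and 0.79 ± 0.40. HLA-C had 10.21 and 10.24 in TC/AEW, 9.42 and 9.34 in TC/AVE, 8.63 and 8.68 in TC/CP and 8.42 to 8.63 in TC-71, and HLA-B differed by 1.00 ± 0.34. The class I genes are close in sequence, so their probe sets may share signal. CD1D, which presents lipids to T cells, had 3.46 and 3.76 in TC/AEW, 5.24 and 4.98 in TC/AVE, 5.72 and 5.47 in TC/CP and 4.43 to 4.87 in TC-71. Over 13 tested antigen presentation genes, 4 (30.8%) lay above both antibody lines and 4 (30.8%) below, near the shares of all genes. Their median of 0.03 combined -0.22 from TC/AVE with 0.52 from TC/CP.

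**Figure D4:**
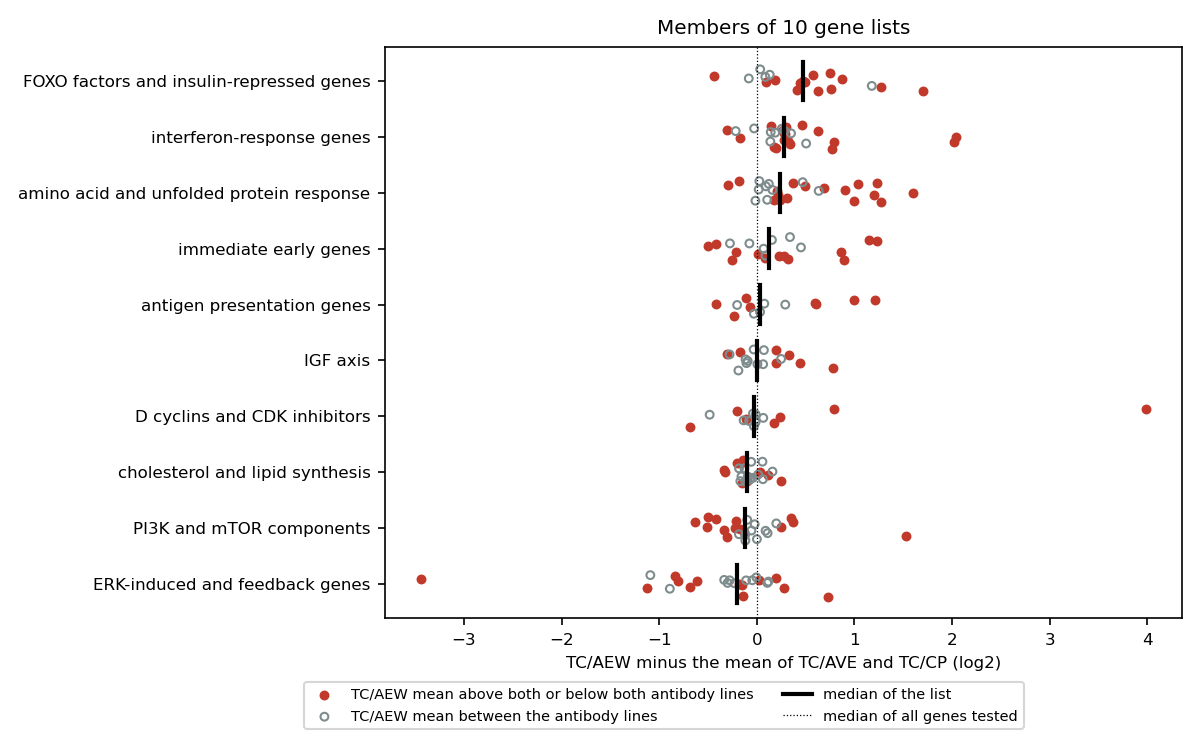
Each point is a member of 1 of 10 gene lists, placed by TC/AEW minus the mean of TC/AVE and TC/CP (log2), and filled where the TC/AEW mean lay above both or below both antibody lines. The black bars mark list medians, from 0.48 for FOXO factors and insulin-repressed genes to -0.21 for ERK-induced genes, beside the dotted median of all genes.

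Lists of proliferation, sterol synthesis and EWS-FLI1 target genes held no member at least 1 from both antibody lines. Only 0.522% of all genes reached that distance, so its absence from short lists says little. The 26 tested DNA replication and mitosis genes had 4 members (15.4%) above both antibody lines and 3 (11.5%) below, against 30% and 27.8% of all genes. The 24 tested cholesterol and lipid synthesis genes had 3 (12.5%) above and 7 (29.2%) below, with a median of -0.10. Of 27 tested genes listed as activated by EWS-FLI1, 13 (48.1%) lay above both and 4 (14.8%) below, against 30% and 27.8% of all genes. Both TC/AEW arrays lay above all 4 antibody arrays for 10 of them (37.0%) and below for 2 (7.41%), against 12.5% and 13.6% of all genes, with a median of 0.07. Of 19 listed as repressed, 5 (26.3%) lay above both and 7 (36.8%) below, with a median of -0.09. FLI1 differed by -0.37 ± 0.37.

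The parental samples entered the level filter and the choice of probe set, but not the distance by which genes were picked here. They showed which side lay nearer the starting line. Some genes, such as IFI16, PI15, CD9 and WASF3, passed the filter through the TC/AEW arrays alone. Their TC-71 levels were then under 5, as were those of the antibody lines, so the counts for the higher genes are partly set by the filter. Of the 56 genes at least 1 above both antibody lines, 45 had a TC-71 mean nearer the antibody lines and 11 nearer TC/AEW, and 46 had both TC/AEW arrays beyond all 3 TC-71 samples. Of the 18 genes at least 1 below both lines, 9 had a TC-71 mean nearer TC/AEW and 9 nearer the antibody lines. For 12 of those 18, all 4 antibody arrays lay beyond all 3 TC-71 samples. With each line set against the TC-71 sample of its own array set, 54 of the 56 and 18 of the 18 kept their sign, and 47 and 16 still reached 1. Other probe sets of the same genes did not enter that distance and were counted whatever their level. They lay on the same side of both lines in 45 of 51 cases for 30 of the higher genes. For 12 of the lower genes they did so in 18 of 28 cases. Both antibody lines were under 5 for 16 of the 56 genes, and TC/AEW was under 5 for 4 of the 18. Just inside the limit of 1 were IGFBPL1 at 1.01 and CRMP1 at 1.001 above, and DUSP5 at -1.01 and LINC01116 at -1.003 below. Just outside were ABCA17P at 0.9996, LDOC1 at 0.99, PRKD1 at -0.95 and MT1X at -0.92.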

How the data were processed

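Total RNA of the 3 resistant lines (2 technical replicate arrays each) and of 3 parental TC-71 samples was hybridised to Affymetrix HG-U133 Plus 2 arrays. The deposited values are log2 expression levels, for which the submitters' processing notes name RMA and affy. Their versions are not given in the sources used here. Of 54675 probe sets, 62 controls were left out. Gene symbols came from the platform annotation, which gave 41091 probe sets 1 symbol, 1801 several and 11721 none, and 41037 of the single symbols were found in the RefSeq gene table. Probe sets at 5 or above on at least 2 arrays were kept, and the one with the highest mean stood for its gene, which left 14181 genes. Probe sets whose names end in _x_at, which may match several transcripts, stood for a gene only where no other kind was kept.

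The 2 arrays of a line were averaged, and limma 3.58.1 (R 4.3.3) was fitted to the 6 samples in 4 groups. The p-values were adjusted by Benjamini-Hochberg across the 14181 genes, and 0.05 was the limit for a call. The contrast was TC/AEW minus the mean of TC/AVE and TC/CP. The procedure was tested on simulated data. Genes were named by rule: among genes with both TC/AEW arrays beyond all 4 antibody arrays, the 16 farthest above and the 16 farthest below the nearer antibody line; IGF1R, INSR, IGF2R, IGF1, IRS1, IRS2, IGFBP3, IGFBP5, FLI1, CCND2, HCLS1 and WASF3 always; and up to 5 members of each of 36 gene lists farthest from the nearer line. The genes described and the lists were chosen with earlier results of these data known. Alternatives changed the filter, the probe set rule, centring, the variance model, the array sets and the arrays used. The number of arrays limits the precision.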

Additional observations from a re-analysis of the deposited data

How the results depend on the processing

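Leaving out each array or TC-71 sample in turn kept the count past an adjusted p of 0.05 in limma at 0, gave 50 to 72 genes at least 1 above the nearer antibody line and gave 15 to 21 at least 1 below it. The count of genes with the TC/AEW arrays beyond all antibody arrays, 3708 with all arrays, ranged between 3708 and 6871, the high values coming from 1 TC/AEW array in place of 2 (5840 without the first and 6871 without the second). Against TC/AVE alone, 271 genes lay at least 1 above, 80 at least 1 below and 8372 beyond the arrays, and against TC/CP alone 161, 198 and 9023, since 1 line leaves fewer conditions to meet. Arrays counted as samples gave 295 genes past the threshold, and the 6 arrays of the lines with a replicate block gave 3496, because technical replicates then set the spread. The replicate numbers did not pair the arrays: the correlations across genes of the first minus the second array were 0.201 for TC/AEW and TC/AVE, -0.12 for TC/AEW and TC/CP and -0.145 for TC/AVE and TC/CP.

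The other alternatives kept these counts within 1.5 times: no filter on level, a filter at 6, the mean of a gene's probe sets, no probe sets marked as shared, centred arrays and a variance trend. The array set as a block did so for the 2 counts obtained with it, against 4 counts for each of the others. Signs that turned, for which the cause was not tested, were as follows. With the array set as a block, INHBE gave -0.56, SESN2 -0.024, ATF3 -0.13, CTH -0.30, DDIT4 -0.25, CHAC1 -0.15, INSR -0.026 and IGF2R -0.15. Against TC/AVE alone INSR gave -0.53 and IGFBP5 -0.48, and against TC/CP alone IGF1R gave 0.19 and IGF2R -0.32. With 1 array left out INSR gave values down to -0.057, and IGF2R ranged between -0.081 and 0.095. With the mean of probe sets AKT2 gave 0.0082 and IGF2R -0.014, and without shared probe sets IGF2R gave -0.35, PDPK1 0.085 and NCKAP1 0.038.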

Other observations

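Chromosome assignments from the RefSeq gene table placed 14164 of the 14181 genes. The X chromosome held 462 tested genes, and 0 of them were at least 1 below both antibody lines in TC/AEW, against 0.127% of all genes. At least 1 above both were 7, or 1.52% of X-linked genes against 0.395% of all genes. They were BEX5, MAOA, MAP7D2, PWWP3B, SCML1, SLC7A3 and TSPAN7, of which MAOA, SCML1 and SLC7A3 were named by rule and the others were picked after their values were seen. MAP7D2 averaged 7.43 in TC/AEW, 4.40 in TC/AVE, 6.30 in TC/CP and 5.63 in TC-71, and PWWP3B averaged 7.55 in TC/AEW, 4.63 in TC/AVE, 6.10 in TC/CP and 5.81 in TC-71. The median difference over X-linked genes was 0.03.

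Chromosome 16 showed small differences in the other direction. Of its 663 tested genes, 27.9% had both TC/AEW arrays below all 4 antibody arrays and 4.68% above, against 13.6% and 12.5% of all genes. Their median difference was -0.09, and 0 lay at least 1 from both lines, against 0.522% of all genes. Chromosome 9 had 25.3% below and 7.73% above, with a median of -0.07. Chromosome 17 had 21.7% above and 4.82% below, with a median of 0.06, and chromosome 4 had 24.6% above and 7.48% below, with a median of 0.07. These chromosomes were picked after their values were seen, genes on a chromosome are not independent replicates, and copy number was not analysed here.

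A difference of at least 1 from the antibody mean did not always set TC/AEW apart. Of 189 genes with such a difference (1.33% of those tested), 15 (0.106%) had TC/AEW between the antibody lines, among them CCNG2, NRIP1, NT5E and SPRY4, picked after their values were seen. SPRY4, a feedback inhibitor of receptor tyrosine kinase signalling, averaged 5.85 in TC/AEW, 5.47 in TC/AVE, 8.42 in TC/CP and 5.43 in TC-71, so the difference of -1.09 came from TC/CP alone. CCNG2, an atypical cyclin, averaged 8.21 in TC/AEW, 8.25 in TC/AVE, 5.81 in TC/CP and 7.23 in TC-71.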
